A study of Mus musculus with 8 samples.

Results

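Notch signalling in cultured mouse astrocytes was followed through 10 genes chosen by name for their place in the pathway. The choice was made with earlier results of these data known. The genes were the receptors NOTCH1, NOTCH2 and NOTCH3, the ligands JAG1 and DLL1, and the target genes HES1, HES5, HEY1, HEYL and NRARP. Of these, 9 were among the 13937 genes with read counts, and all 9 were among the 13509 genes that passed the filter on low counts. DLL1 had no count row and was measured only as FPKM, a value per transcript length and sequencing depth. After TGF-β, NOTCH3 and JAG1 rose between 2.11-fold and 2.19-fold in the 2 genotypes, NRARP was called higher in WT cells and HES5 was called lower in RGC-32 KO cells, where it rested on few reads. No member was called different between WT and RGC-32 KO cells, and none passed the test of a difference in response to TGF-β between them.

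Notch receptors are cut after they bind a ligand on a neighbouring cell, and the freed intracellular domain enters the nucleus and joins RBPJ and Mastermind proteins at target genes. The HES and HEY genes that are switched on in this way encode transcriptional repressors, which hold back neuronal differentiation in the developing brain and take part in the formation of astrocytes. NRARP, another target, encodes a small protein that feeds back to lower Notch activity. NOTCH3 and HEYL are also known from the mural cells of blood vessels, where TGF-β and Notch signals meet.

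The libraries came from primary astrocytes of C57BL/6 pups aged 1 day, either WT or RGC-32 KO, the latter lacking the cell cycle regulator RGC-32 that is encoded by RGCC. Cells of each genotype were left untreated (WT control, RGC-32 KO control) or stimulated with TGF-β (10 ng/ml, 24 h) (WT TGF-β, RGC-32 KO TGF-β), with 2 biological replicates in each of the 4 groups and 8 libraries in all. Astrocytes were starved of serum overnight before stimulation, and whether this held for the control cells too is not stated. The cells were an adherent layer grown in serum from which neurons and oligodendrocyte precursors had been shaken off, after the meninges were removed, and nearly all of them are described as positive for the astrocyte marker GFAP, while no step that sorted astrocytes is described. The comparisons ask how TGF-β changed these genes in each genotype and whether loss of RGC-32 altered that response.

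Total counts ran from 14920561 to 18956038 per library. RGCC was counted 80 and 94 times in WT control, 215 and 362 times in WT with TGF-β, 61 and 28 times in the RGC-32 KO control, and 64 and 26 times after TGF-β in RGC-32 KO, so reads of the targeted gene were still present in the libraries labelled RGC-32 KO, at lower counts than in WT. The genotype difference of RGCC did not pass the test over all genes (adjusted p = 0.780 in control and 0.133 after TGF-β). The 10 astrocyte markers examined were all tested, with GFAP the highest. Their summed level was 4620 to 4847 CPM (counts scaled to a common, normalized library size) in WT control and 3585 to 3705 CPM in WT with TGF-β, and 5342 to 6005 CPM in the RGC-32 KO control and 4384 to 4716 CPM in RGC-32 KO with TGF-β, so the sum was lower with TGF-β in each genotype and higher in RGC-32 KO in each condition. The part of this difference in the Notch results was not tested. In bulk RNA, fewer cells of a type and less RNA per cell cannot be told apart, and this holds for every difference below.

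Among the 9 counted members, 3 were called higher and 0 lower after TGF-β in WT cells, where a call needed a log2 fold change of 0.6 or more in size and, in edgeR's quasi-likelihood test, an adjusted p under 0.05. In this comparison 7.72% of all genes tested were called higher and 5.65% lower. In RGC-32 KO cells 2 members were called higher and 1 lower, beside 6.61% and 4.93% of all genes. The median log2 fold change of the 9 members was 0.40 for WT cells and 0.39 for RGC-32 KO cells, while the median of all genes was -0.0048 and 0.0031. The CPM ranges of the TGF-β and control groups did not overlap for 8 members that were higher and 1 that was lower in WT, where 35.4% of all genes were separated upward and 33.7% downward. In RGC-32 KO 6 members were separated upward and 1 downward, beside 34.3% and 32.9% of all genes.

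**Figure D1:**
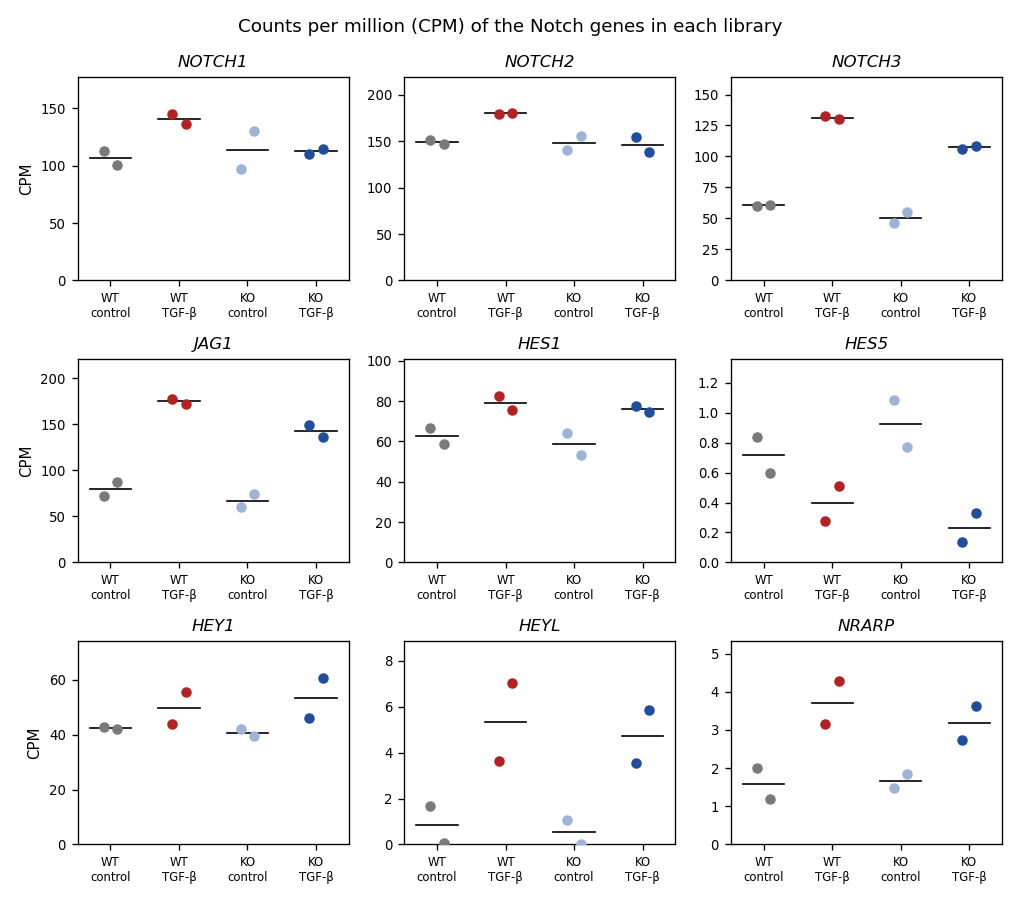
CPM of the 9 counted Notch genes on linear axes that start at 0, with 1 point per library and a bar at the mean of each group of 2. NOTCH3 and JAG1 sat in separate ranges before and after TGF-β in both genotypes, while NOTCH1 and NOTCH2 overlapped in RGC-32 KO cells and HEYL was near 0 in both second control libraries.

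NOTCH3 (chr17:32120820-32166852, minus strand, GRCm38) rose in both genotypes. It encodes a receptor that vascular smooth muscle cells and pericytes need and that astrocytes also carry. Its level was 60.2 and 60.7 CPM in WT control and 132 and 129.9 CPM in WT with TGF-β. In RGC-32 KO cells it went from 46.5 and 55.0 CPM in control to 106 and 108.6 CPM after TGF-β. Every library given TGF-β was above every control library, and the groups were far apart beside the spread of their replicates. In WT the log2 change was 1.12 (SE 0.077, adjusted p = 0.000138), and the RGC-32 KO value was 1.08 (SE 0.078, adjusted p = 0.000201), and both calls held in every alternative run. A noncoding gene on the opposite strand, Gm17276, covers 488 of the 8089 exonic bases of NOTCH3, and the libraries did not mark strand.

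The 250 bases before the start of NOTCH3 are shown because this receptor rose in both genotypes. They are the RefSeq sequence at chr17:32166891-32167140 (GRCm38.p6, minus strand), with capitals at CACNAG, a form of the N box that HES repressors bind, read on either strand:
NOTCH3: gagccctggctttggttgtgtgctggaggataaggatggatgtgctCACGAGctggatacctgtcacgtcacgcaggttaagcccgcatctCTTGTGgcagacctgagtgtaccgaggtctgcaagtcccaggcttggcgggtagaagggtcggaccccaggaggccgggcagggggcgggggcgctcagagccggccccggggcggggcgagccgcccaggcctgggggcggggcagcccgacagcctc
The N box letters are common, since 42.5% of 32851 promoters of this kind, 250 bases before to 50 after a start, hold CACNAG on at least 1 strand. TGGGAA, the core letters bound by RBPJ, are not in the NOTCH3 window.

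NOTCH1 (chr2:26457903-26516663, minus strand) and NOTCH2 (chr3:98013527-98150361, plus strand), the receptors with the broadest use in neural stem cells and glia, moved less. NOTCH1 stood at 113 and 101 CPM in WT control and at 145 and 136 CPM in WT with TGF-β, a separated pair of groups. In RGC-32 KO cells it was 97.6 and 130.0 CPM in control and 110.3 and 115 CPM after TGF-β, so both treated libraries lay between the control libraries. On the log2 scale the change was 0.40 for WT (SE 0.12, adjusted p = 0.0418) against -0.02 for RGC-32 KO (SE 0.12, adjusted p = 0.936). The WT value is under the fold limit of 0.6 and was not a call. Noncoding genes of the opposite strand cover 1482 of the 14232 exonic bases of NOTCH1, and an unclassified gene model on the strand of NOTCH2 covers 541 of its 10782.

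NOTCH2 followed the same outline. Its WT libraries held 151 and 147 CPM in control and 179.9 and 180.4 CPM after TGF-β. Its RGC-32 KO libraries held 141 and 156 CPM in control and 154 and 138 CPM after TGF-β, which overlap. TGF-β changed it by a log2 fold of 0.27 in WT cells (SE 0.073, adjusted p = 0.0241), again under the fold limit, and of -0.03 in those lacking RGC-32 (SE 0.073, adjusted p = 0.820). The test of the difference between the 2 responses gave 0.41 for NOTCH1 (unadjusted p = 0.0468) and 0.30 for NOTCH2 (unadjusted p = 0.0206), both with an adjusted p of 1.00 over all genes. The response of these receptors is therefore not shown to differ between genotypes. The value for NOTCH1 ran from 0.19 to 0.61 when each library was left out in turn.

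JAG1 (chr2:137081456-137116644, minus strand), a membrane-bound ligand that reactive astrocytes display and that TGF-β is known to induce in other cell types, rose in both genotypes. It was 71.6 and 87.8 CPM in WT control and 178 and 172 CPM in WT with TGF-β. In RGC-32 KO it was 59.97 and 74.0 CPM in control and 149 and 136 CPM after TGF-β. The lowest treated library was above the highest control library by a wide margin in each genotype. In WT the log2 change was 1.13 (SE 0.12, adjusted p = 0.000599), and the RGC-32 KO value was 1.09 (SE 0.12, adjusted p = 0.00088), and these calls also held in every alternative run. No annotated gene overlaps the exons of JAG1.

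DLL1 (chr17:15367354-15376872, minus strand), the Delta ligand of differentiating neural cells, was measured at low FPKM only. Its values were 0.276 and 0.252 FPKM in WT control, 0.205 and 0.152 FPKM in WT with TGF-β, 0.215 and 0.328 FPKM in the RGC-32 KO control, and 0.241 and 0.189 FPKM in RGC-32 KO with TGF-β. The WT groups did not overlap and the RGC-32 KO groups did. On the scale of log2(FPKM + 0.1), which understates changes of low genes, limma gave a difference of -0.39 for WT cells (SE 0.22, adjusted p = 0.194) and, for RGC-32 KO cells, -0.23 (SE 0.22, adjusted p = 0.444) over 15389 genes. Neither passed the threshold. A930024N18Rik, a noncoding gene on the opposite strand, covers 867 of the 4219 exonic bases of DLL1.

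HES1 (chr16:30064384-30067796, plus strand), the general Notch-responsive repressor of neural progenitors and glia, did not reach the fold limit. Its level was 66.9 and 58.6 CPM in WT control, 82.5 and 75.6 CPM in WT with TGF-β, 64.4 and 53.3 CPM in the RGC-32 KO control, and 77.8 and 74.4 CPM in RGC-32 KO with TGF-β. The treated libraries lay above the control libraries in both genotypes without being called, with log2 fold changes of 0.34 for WT cells (SE 0.10, adjusted p = 0.0394) and, for RGC-32 KO cells, 0.37 (SE 0.10, adjusted p = 0.0318), both under the fold limit.

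HEY1 (chr3:8663359-8667256, minus strand), a repressor that acts beside HES1 and is also a target of BMP signals, was not called either. It was 42.8 and 42.1 CPM in WT control, 44.0 and 55.4 CPM in WT with TGF-β, 42.1 and 39.4 CPM in the RGC-32 KO control, and 46.2 and 60.6 CPM in RGC-32 KO with TGF-β. In each genotype the first treated library was barely above the controls and the second clearly above them. On the log2 scale the change was 0.22 for WT (SE 0.14, adjusted p = 0.265) against 0.39 for RGC-32 KO (SE 0.14, adjusted p = 0.0769).

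HES5 (chr4:154960923-154962371, plus strand), a Notch target of neural stem cells, was the only counted member whose groups were separated downward after TGF-β, and it was barely detected. It had 13 and 10 counts in WT control and 5 and 8 counts in WT with TGF-β. In RGC-32 KO it had 17 and 13 counts in control and 2 and 5 counts after TGF-β. The groups were separated in both genotypes, by a few reads. TGF-β changed it by a log2 fold of -0.87 in WT cells (SE 0.49, adjusted p = 0.213) and of -1.95 in those lacking RGC-32 (SE 0.54, adjusted p = 0.0303), which was a call. That call was lost when any of the 4 RGC-32 KO libraries was left out (log2 fold change -2.74 to -1.46, lowest adjusted p = 0.0600), with DESeq2 (adjusted p = 0.153) and with the replicate number as a block (adjusted p = 0.0609). Gm20421, a noncoding gene on the opposite strand, covers 433 of its 1363 exonic bases.

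The upstream sequence of HES5 is shown because it holds 2 copies of the RBPJ core letters before a gene whose counts moved against the other targets, and that of NRARP because this target was called higher in WT. Both are RefSeq sequences on the plus strand of GRCm38.p6, at chr4:154960673-154960922 and chr2:25180508-25180757. Capitals mark TGGGAA, read on either strand, in HES5, and the E-box CACGTG and the N box CACNAG, on either strand, in NRARP:
HES5: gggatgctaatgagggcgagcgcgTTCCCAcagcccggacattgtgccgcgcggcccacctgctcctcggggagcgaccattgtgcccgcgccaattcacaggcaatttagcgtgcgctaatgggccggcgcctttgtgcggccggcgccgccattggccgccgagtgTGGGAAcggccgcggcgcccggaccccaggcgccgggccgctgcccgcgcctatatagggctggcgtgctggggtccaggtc
NRARP: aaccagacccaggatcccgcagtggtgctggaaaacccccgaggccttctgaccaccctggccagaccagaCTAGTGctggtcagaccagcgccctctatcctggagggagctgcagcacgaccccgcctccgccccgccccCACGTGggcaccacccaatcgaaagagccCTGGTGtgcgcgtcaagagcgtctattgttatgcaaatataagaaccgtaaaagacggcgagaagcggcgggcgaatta
In HES5 the copies of TGGGAA begin 226 and 82 bases before the start, the first on the minus strand and the second on the plus strand. At least 1 copy is found in 25.6% of the 32851 promoters and 2 or more in 3.79%. The E-box is in 7.15% of them. RefSeq promoters were matched for 7 of the 10 members, HES1, HEY1 and HEYL being unmatched, and these letters are a description of the windows and not evidence of binding.

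HEYL (chr4:123233556-123249875, plus strand), a member of the HEY family expressed in vascular smooth muscle, had the largest fitted change of the 9 and a control level that varied widely. It was counted 26 times and 1 time in the WT control libraries and 66 and 110 times in WT with TGF-β. In RGC-32 KO it was counted 17 and 0 times in control and 53 and 89 times after TGF-β. All 4 treated libraries were above all 4 control libraries, but the replicates of each control group were far apart. In WT the log2 change was 2.64 (SE 0.92, adjusted p = 0.0601), and the RGC-32 KO value was 3.15 (SE 1.02, adjusted p = 0.0530), and neither was a call. Without WT control 1 the WT response was called (adjusted p = 0.0254), and without RGC-32 KO control 1, which leaves a control at 0 counts, the RGC-32 KO response was called (adjusted p = 0.0430). With 1 library left out the log2 change ran from 1.64 to 6.30 in WT, lowest without WT control 2 and highest without WT control 1, and from 2.11 to 9.24 in RGC-32 KO, lowest without its control 2 and highest without its control 1. With all libraries, limma on log2(FPKM + 1) called both responses (0.75, adjusted p = 0.0245, and 0.73, adjusted p = 0.0281), and edgeR on the 4 RGC-32 KO libraries called that of RGC-32 KO (adjusted p = 0.0334), while over the 10 alternatives that left none out the adjusted p ran to 0.387 in WT and 0.306 in RGC-32 KO. No annotated gene overlaps its exons.

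NRARP (chr2:25180758-25183339, plus strand), the feedback inhibitor, rose in WT. It had 31 and 20 counts in WT control and 57 and 67 counts in WT with TGF-β. In RGC-32 KO it had 23 and 31 counts in control and 41 and 55 counts after TGF-β. The groups were separated in both genotypes. On the log2 scale the change was 1.22 for WT (SE 0.31, adjusted p = 0.0192) against 0.94 for RGC-32 KO (SE 0.31, adjusted p = 0.0561), and the difference of 0.27 between them had a 95% confidence interval from -0.75 to 1.30. The WT call was lost without WT control 2 (0.87, adjusted p = 0.110) and without WT TGF-β 2 (0.97, adjusted p = 0.119). An antisense gene, Gm38287, covers 2051 of its 2582 exonic bases, and without strand the reads of the pair cannot be told apart.

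**Figure D2:**
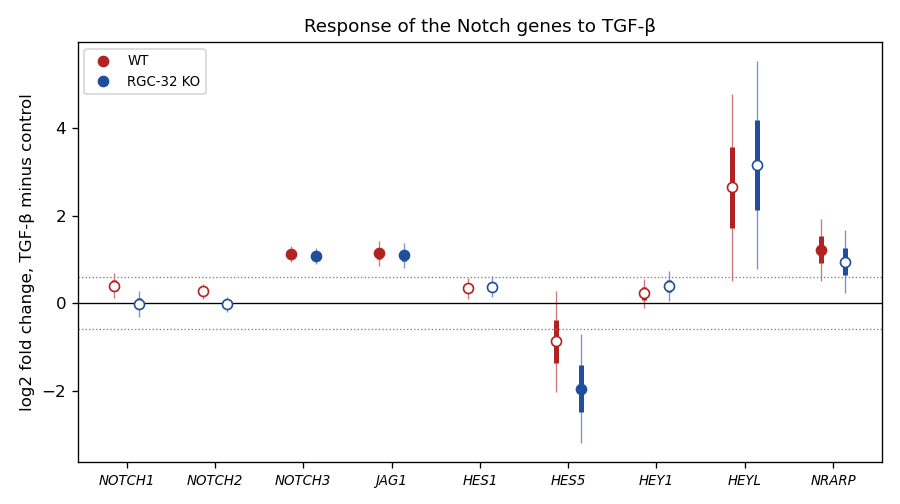
Log2 fold change of TGF-β over control for the 9 counted Notch genes in WT (red) and RGC-32 KO (blue). Thick bars are the standard error, thin bars the 95% confidence interval, filled points are calls and dotted lines mark the fold limit of 0.6. NOTCH3 and JAG1 were filled in both genotypes with narrow bars, and the bars of HEYL and HES5 were the widest.

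A mean response over both genotypes, chosen after the values were seen, rests on 4 treated and 4 control libraries. It called NOTCH3 (1.10), JAG1 (1.11), NRARP (1.08, adjusted p = 0.00490) and HEYL (2.89, adjusted p = 0.0101) higher and HES5 (-1.41, adjusted p = 0.0149) lower, so 4 members up and 1 down, beside 8.33% and 6.75% of all genes. HES1 (0.35, adjusted p = 0.00539) and HEY1 (0.31, adjusted p = 0.0372) passed the p threshold below the fold limit. NOTCH1 and NOTCH2 did not pass it (adjusted p = 0.108 and 0.0807).

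WT and RGC-32 KO cells were then compared with each other. Without TGF-β, 0 of the 9 members and 0.037% of all genes were called, and only NOTCH3 had an unadjusted p under 0.05 (log2 difference of WT minus RGC-32 KO 0.25, SE 0.079, unadjusted p = 0.0132, adjusted p = 0.614). After TGF-β, 0 members and 0.0444% of all genes were called, the latter being 6 genes by edgeR against 22 higher and 12 lower by DESeq2, which also called 0 members. In that comparison the log2 differences of WT minus RGC-32 KO were 0.32 for NOTCH1, 0.30 for NOTCH2, 0.29 for NOTCH3 and 0.30 for JAG1. Their unadjusted p-values were 0.0320, 0.00332, 0.00508 and 0.0378, and 4 of 9 members were under 0.05, as were 1576 of the 13509 genes. After adjustment by the Benjamini-Hochberg method in edgeR they were 0.379, 0.202, 0.226 and 0.392. These 4 genes were compared in the same libraries, so the differences are not independent of each other.

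The interaction of genotype and TGF-β called 0 members and 0% of all genes by edgeR, with 2 members and 381 of 13509 genes at an unadjusted p under 0.05, and DESeq2 also called 0 genes. For the members that rose in both genotypes the intervals were narrow enough to bound the difference. The response in WT minus that in RGC-32 KO was 0.04 for NOTCH3 (95% confidence interval -0.21 to 0.29) and 0.05 for JAG1 (-0.35 to 0.44) on the log2 scale. For HES1 it was -0.04 (-0.37 to 0.30) and for HEY1 -0.17 (-0.64 to 0.30). HES5 (1.08, -0.68 to 2.84) and HEYL (-0.51, -4.02 to 2.995) had intervals too wide to bound the difference.

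Levels of different genes were compared per transcript length, by FPKM. HES1 was the highest of the 10 members in all 4 groups, at 31.1 ± 2.9 FPKM in WT control and 37.3 ± 1.3 FPKM in WT with TGF-β (SD, n = 2). HEY1 came next in both control groups, at 17.4 ± 0.058 FPKM in WT. NOTCH2, JAG1, NOTCH1 and NOTCH3 followed in that order, at 11.98, 11.1, 8.87 and 6.16 FPKM in WT control, where NOTCH2 and JAG1 overlapped and the other neighbours among them did not. After TGF-β JAG1 reached 21.3 ± 1.8 FPKM in WT and 17.9 ± 2.3 FPKM in RGC-32 KO, overlapping HEY1 in both, and NOTCH3 overlapped NOTCH1. NRARP, HES5, DLL1 and HEYL were at most 1.30 FPKM in every library. Among these low members HES5, DLL1 and HEYL overlapped their neighbours in the control groups, so their order is not resolved.

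**Figure D3:**
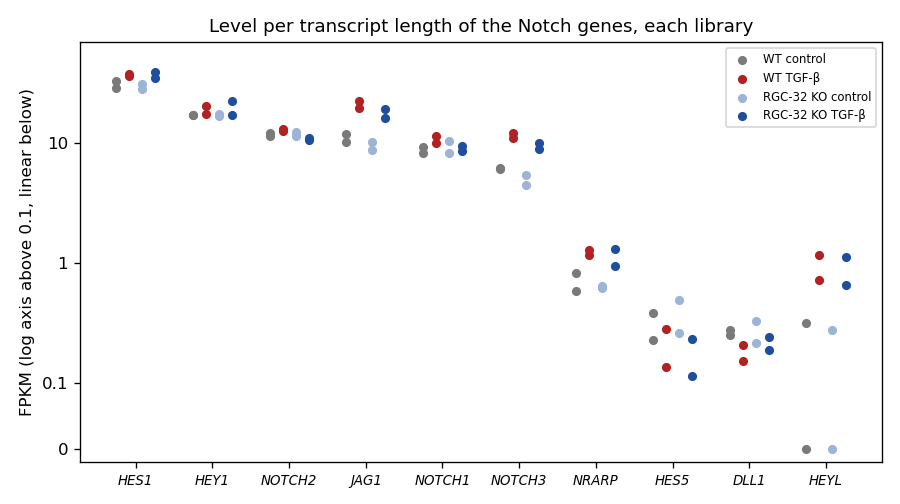
FPKM of the 10 Notch genes in each of the 8 libraries, on an axis that is logarithmic above 0.1 and linear below it. HES1 was highest throughout, JAG1 and NOTCH3 stepped up with TGF-β, and HEYL was listed at 0 in both second control libraries.

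The make-up of the receptor transcripts shifted with TGF-β. NOTCH3 was 21.9 and 23.4% of the summed FPKM of the 4 Notch receptors in WT control and 32.4 and 32.0% in WT with TGF-β. In RGC-32 KO it was 18.5 and 18.8% in control and 32.5 and 30.1% after TGF-β. NOTCH2 was the largest single share in all 8 libraries, at 43.4 to 47.0% in control and 34.6 to 36.7% after TGF-β. Among the ligands JAG1, JAG2 and DLL1, JAG1 held 87.5 to 90.4% of the summed FPKM in the control libraries and 94.0 to 95.3% in those given TGF-β. That sum leaves out other genes listed as ligands below, so it is not a share of all Notch ligands. DNER was at 21.9 FPKM in WT control and 21.4 FPKM in WT with TGF-β, beside 11.1 and 21.3 FPKM for JAG1. In RGC-32 KO DNER was at 21.8 and 21.5 FPKM, beside 9.59 and 17.9 FPKM for JAG1. DLK1 and CNTN1 were at 3.52 and 3.19 FPKM in WT control.

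Other genes of the pathway were taken from a list of 61, of which 55 were tested. In WT 5 were called higher and 2 lower, and in RGC-32 KO 3 higher and 2 lower, with a median log2 fold change of 0.0030 and 0.0062. The corresponding shares of all genes were 7.72% and 5.65% in WT and 6.61% and 4.93% in RGC-32 KO, so nothing is read from these counts about the pathway. NOTCH4, the receptor of endothelial cells and the only other receptor, had 21 and 51 counts in WT control, 165 and 127 in WT with TGF-β, 28 and 74 in the RGC-32 KO control, and 156 and 116 after TGF-β in RGC-32 KO. All treated libraries exceeded all control libraries, and it rose in WT cells (log2 fold change 1.96, SE 0.43, adjusted p = 0.0108) as well as RGC-32 KO cells (1.54, SE 0.41, adjusted p = 0.0259). NOTCH4 stayed a small part of the receptor sum, between 0.423 and 3.51%.

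Among the steps outside the receptor's own transcript, 0 of 2 sheddases, 0 of 7 gamma-secretase genes, 0 of 5 glycosyltransferases and 0 of 9 negative regulators tested were called in either genotype. The shares of all genes called were 7.72% higher and 5.65% lower in WT, and 6.61% and 4.93% in RGC-32 KO. Nothing is read from counts in groups this small. The genes with the most CPM in each role, by the mean over the 4 groups, which is not a level per length, were ADAM10 (log2 fold change in WT 0.18, in RGC-32 KO 0.20), which makes the first cut in the bound receptor, NCSTN (0.23 and 0.32), a gamma-secretase subunit, POGLUT1 (-0.01 and 0.08), which adds glucose to the receptor, and NUMBL (0.01 and 0.01), a Numb-like inhibitor. MIB1, the ubiquitin ligase that lets ligands pull on the receptor, rose in WT (0.67, adjusted p = 0.00291) and gave 0.38 in RGC-32 KO, below the fold limit. Its RGC-32 KO groups were separated, at 37.4 and 48.2 CPM in control and 55.4 and 55.8 CPM after TGF-β. MIB2, with the most CPM of the ligases, gave -0.04 and -0.13. In the nuclear complex MAML3, a Mastermind coactivator, rose in WT (0.92, adjusted p = 0.00196) and gave 0.57 in RGC-32 KO (adjusted p = 0.0173), below the fold limit. SNW1, with the most CPM in that group, gave -0.19 and -0.14.

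Corepressors and HES-related repressors of the list moved in both directions. TLE2, a Groucho-type corepressor that HES proteins recruit, fell in both (-0.76 and -0.70). CTBP1, with the most CPM of the 10 corepressors reported, gave 0.14 in WT and 0.16 in RGC-32 KO. BHLHE40, a basic helix-loop-helix repressor related to the HES family that also answers to TGF-β and hypoxia, was 52.4 and 78.0 CPM in WT control and 215 and 190.0 CPM in WT with TGF-β. On the log2 scale its rise was 1.63 for WT cells and 1.62 for RGC-32 KO cells, and that of its relative BHLHE41 was 0.69 and 0.62. HES7, the oscillating repressor of the segmentation clock, fell in RGC-32 KO (-0.83, adjusted p = 0.0195) on 26 to 51 counts and gave -0.18 in WT. CNTN1, a contactin that can act as a ligand, fell in WT (-0.63) and gave -0.58 in RGC-32 KO, while DNER, with the most CPM of the other ligands, gave -0.04 and 0.09. None of the 55 genes was called in the interaction, so calls made in 1 genotype are not shown to differ from the other.

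**Figure D4:**
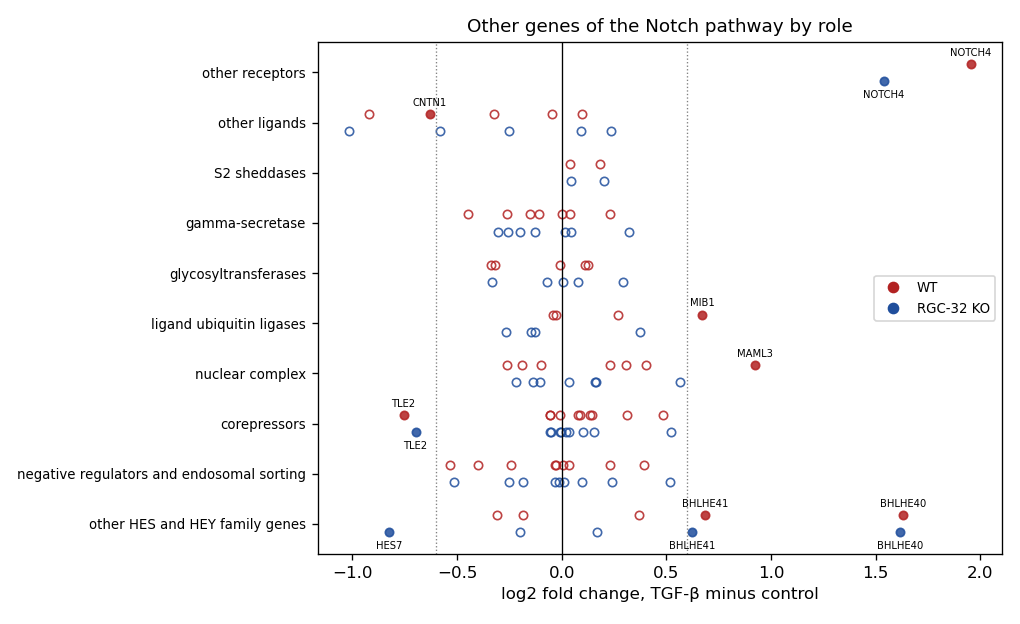
Log2 fold change of TGF-β over control for the 55 other Notch pathway genes tested, by role, in WT (red, upper row of each role) and RGC-32 KO (blue, lower row). Filled and named points are calls and dotted lines mark the fold limit of 0.6. NOTCH4 and BHLHE40 lay farthest to the right in both genotypes, and no sheddase or gamma-secretase gene passed the limit.

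Markers of other cell types moved with TGF-β as well, and their part in the Notch results was not tested. Of 10 pericyte and smooth muscle markers 6 were tested, and 4 were called higher in each genotype (PDGFRB, CSPG4, ANPEP and MYH11), with 0 lower in WT and 1 lower, VTN, in RGC-32 KO. Their summed level was 179 to 189.6 CPM in WT control and 537 to 631 CPM in WT with TGF-β, and 156 to 168 CPM in the RGC-32 KO control and 392 to 476 CPM in RGC-32 KO with TGF-β. Most of the rise in WT lay in CSPG4 (38.5 and 25.4 CPM to 257 and 302 CPM) and PDGFRB (120 and 127 CPM to 227 and 275 CPM). VTN gave a log2 fold change of -0.64 in WT without a call. KCNJ8, ABCC9, DES and HIGD1B of that list had no count row, and RGS5, a defining pericyte gene, was at 63 to 86 counts with no call. Of 8 meningeal fibroblast markers 7 were tested and 4 were called higher in each genotype, led by COL1A1 and including the shared PDGFRB, with 1 lower in WT, DCN (log2 fold change -0.62). FOXC1 and LUM gave -0.42 and -0.32 in WT without a call. The summed level of this list went from 3532 to 4194 CPM in WT control to 7576 to 8736 CPM in WT with TGF-β, and from 2689 to 2922 CPM to 5573 to 5753 CPM in RGC-32 KO. COL1A1 and COL1A2 made up most of it, at 1606 and 1347 CPM in WT control 1 and 3807 and 3161 CPM in WT TGF-β 1.

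The 7 endothelial markers tested of 10 split, with 2 called higher and 1 lower in WT and 1 higher and 2 lower in RGC-32 KO, and their sum, led by CDH5, went from 102 to 125 CPM to 79.8 to 82.8 CPM in WT and from 103 to 127 CPM to 77.1 to 85.6 CPM in RGC-32 KO. CLDN5, TIE1 and EMCN had no count row and PECAM1 had 11 to 27 counts. Among the 10 astrocyte markers 2 were lower in each genotype (SLC1A2 and GLUL). The microglia list, led by CSF1R, had 1 of 8 markers higher in each genotype, with sums of 815 to 1081 CPM over the WT libraries and 819 to 971 CPM over the RGC-32 KO libraries. The neuron list, led by MAP2, had 1 of 3 tested markers higher in each genotype. Of 7 oligodendrocyte lineage markers, led by OLIG1, 2 were lower in each genotype and 1 higher in RGC-32 KO. The ependymal list, led by FOXJ1, had 4 of 5 tested markers lower in WT and 1 lower in RGC-32 KO. Its sum fell in both genotypes, from 349 to 407 CPM to 222 to 250 CPM in WT. In RGC-32 KO the sum went from 374 to 415 CPM to 268 to 280 CPM.

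The genes most like HEYL and HES5 were sought by Pearson's r of log2 CPM over the 8 libraries, as a description without a test, since all points share the TGF-β contrast and the library depth. For HEYL they were ERG (r = 0.995), NXPH4 (r = 0.993) and CARD10 (r = 0.993). ERG, a transcription factor of endothelial cells, had 28 and 0 counts in WT control, 92 and 153 in WT with TGF-β, 27 and 0 in the RGC-32 KO control, and 76 and 141 after TGF-β in RGC-32 KO. It is also in the endothelial list above, which split. In WT, FLT1 (1.13) and ESAM (1.58) of that list were called higher and CDH5 (-1.09) lower. NXPH4, a secreted neurexophilin, ranged from 2 to 167 counts. CARD10, a scaffold protein upstream of NF-κB with the most counts of the 3, had 159 and 29 counts in WT control, 382 and 677 in WT with TGF-β, 143 and 29 in the RGC-32 KO control, and 260 and 482 after TGF-β in RGC-32 KO. For each of the 3, as for HEYL, the second control library was the lower and the second TGF-β library the higher of its pair in both genotypes, so the spread between replicates is part of the likeness. CARD10 and NXPH4 were called higher in WT (log2 fold change 2.44 and 3.01), while ERG (3.07, adjusted p = 0.0532) was not.

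For HES5 the most similar genes were CES1A (r = 0.976), ATP5S (r = 0.974) and NEFM (r = 0.970). NEFM, the medium neurofilament chain of neurons, had 36 and 32 counts in WT control, 20 and 23 in WT with TGF-β, 53 and 47 in the RGC-32 KO control, and 12 and 16 after TGF-β in RGC-32 KO. CES1A had 5 to 24 counts and ATP5S 165 to 244 counts. NEFM and CES1A were called lower in RGC-32 KO (log2 fold change -1.72 and -1.68) and gave -0.72 and -0.79 in WT without a call. ATP5S was not called in either genotype.

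**Figure D5:**
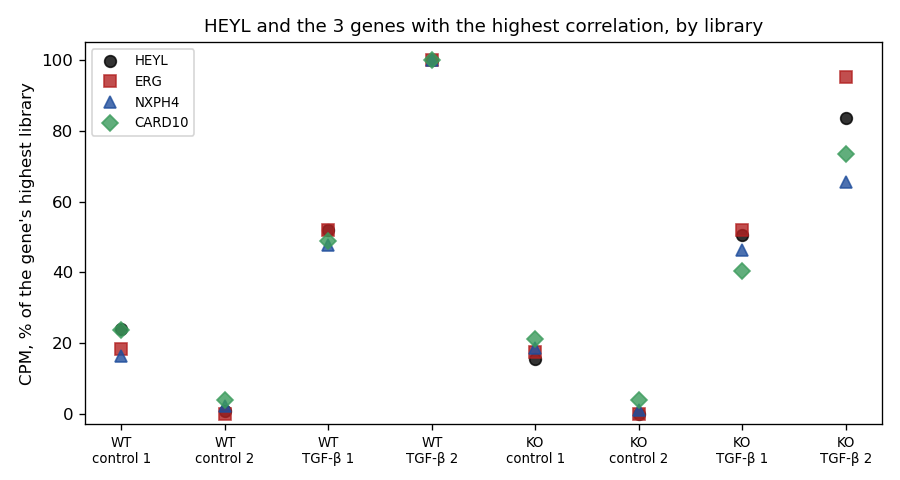
CPM of HEYL, ERG, NXPH4 and CARD10 in each of the 8 libraries as a percentage of the gene's own highest library. All 4 genes were highest in WT with TGF-β 2 and lowest in the second control libraries, and in each genotype the second TGF-β library was above the first.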

How the data were processed

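RNA of 8 libraries was sequenced without strand information. STAR, run through VIPER, was the aligner of the authors, who deposited raw read counts per gene as whole numbers and a table of FPKM values. Per the submitters' processing notes, the genome build was mm10 and STAR, Cufflinks and DESeq were used. The program that counted reads and the annotation are not given in the sources used here. The deposited tables of the authors' own comparisons (fold changes, p-values and gene annotation) were not used.

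The counts were fitted by edgeR 4.0.16 (R 4.3.3) after filterByExpr and TMM scaling, in 1 quasi-likelihood model of all 8 libraries with the 4 group means and without a block. Tests were two-sided and adjusted by the Benjamini-Hochberg method over 13509 genes. SE was derived from the test statistic. CPM was scaled by TMM, with a prior count of 2 for log2 CPM. Alternatives were DESeq2 1.42.0, limma 3.58.1 (voom, or log2 of FPKM plus 0.1 or 1 for genes with a mean above 0.1), other filters and scalings, a replicate block, 4-library fits and leaving out each library. The procedure was also run on simulated counts drawn independently for each library. These lack the correlated replicate deviations described below, so the run cannot show how the tests behave under them. p-values rest on the spread between 2 biological replicates per group, pooled over the 4 groups and moderated by the spread of other genes. They do not measure the spread of a gene within a single group. Replicates differed by more than counting noise (chi-square per degree of freedom 6.14 to 10.1).

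The Notch genes, pathway list and marker lists were chosen with earlier results of these data known. Named were all members, pathway genes that were called or had the highest CPM of their role, RGCC, the 3 genes most correlated with HEYL and with HES5 (the members with the largest change in each direction), and the highest gene of each marker list. Other marker genes and RBPJ letters were named after their values were seen. Coordinates and overlaps are from GENCODE M21 (GRCm38), promoters from RefSeq (GRCm38.p6). Protein sequences were not analysed here, and 1 further gene of the pathway list is not reported here.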

Additional observations from a re-analysis of the deposited data

How the results depend on the processing

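The calls of NOTCH3 and JAG1 in both genotypes were made in every alternative run, which comprised other tests, filters, scalings, the replicate block and leaving out each library. Over all genes, upper quartile scaling gave 857 higher and 1055 lower calls in WT against 1043 and 763 with TMM, and 747 and 895 against 893 and 666 in RGC-32 KO. With no fold limit 6 members were higher in WT in place of 3. On the 4 RGC-32 KO libraries alone 4 members were higher in place of 2, the additions being HEYL and NRARP. The lower call of HES5 in RGC-32 KO was lost, leaving 0, with DESeq2, with either FPKM scale, with at least 10 counts in every library (which removed HES5 and HEYL), with the replicate block, and without any 1 RGC-32 KO library. NRARP in WT lost its call on log2(FPKM + 1), at 0.38.

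The replicate block took calls over all genes in WT from 1043 and 763 to 957 and 659 and changed no other call of a member. The labels do not say that a number pairs samples: deviations of the second from the first replicate correlated at -0.34 between WT groups and -0.35 between RGC-32 KO groups, but at 0.49 between the control groups and 0.25 between the TGF-β groups of the 2 genotypes, which are the libraries compared for genotype. With crossed pairs, chosen after seeing the data, 4 members were higher in RGC-32 KO, and 1040 genes were called higher and 812 lower. For WT minus RGC-32 KO after TGF-β, genes called went from 3 higher and 3 lower to 25 and 11 with crossed pairs, 1 and 2 with the block and 22 and 12 with DESeq2. In control the 5 genes called became 6 and 4 with crossed pairs, 1 and 1 with the block and 7 and 6 with DESeq2.

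Signs turned only for values that were not called, and the cause was not tested. For WT minus RGC-32 KO in control, NOTCH2 was -0.0048 with upper quartile scaling and -0.0038 and -0.0036 on the FPKM scales with 0.1 and 1 added, and NRARP 0.126 and 0.0617 on those scales. After TGF-β, HES1 was -0.0090 and -0.0089. The interaction on those scales was -0.0020 for NOTCH3 and -0.0060 for NRARP with 0.1 added, and 0.02 for HEYL on both (0.0152 and 0.0226).

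With 1 library left out, the response in RGC-32 KO ran from -0.23 to 0.21 for NOTCH1 and from -0.114 to 0.0497 for NOTCH2. WT minus RGC-32 KO in control ran from -0.28 to 0.13 for NOTCH1, -0.0669 to 0.0797 for NOTCH2, -0.0404 to 0.233 for HES1, -2.98 to 6.79 for HEYL and -0.47 to 0.27 for NRARP. After TGF-β it ran from -0.30 to 0.11 for HEY1, -0.38 to 0.59 for HEYL and -0.0305 to 0.440 for NRARP. The interaction ran from -0.0883 to 0.156 for NOTCH3, -0.11 to 0.20 for JAG1, -0.17 to 0.10 for HES1, -0.352 to 0.0602 for HEY1, -6.62 to 3.15 for HEYL and -0.0578 to 0.682 for NRARP. The HEYL values for control and the interaction depend on the prior count, since a control group can be left at 0 counts or 1. The fit to 4 libraries was not run for the interaction, which needs all 8. HES5 did not pass the low-count filter on the 4 TGF-β libraries alone, so that fit gave it no value. HES5, HEYL and NRARP had 0 to 110 counts per library, and the part of depth in their errors was not tested.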
